A study of Mus musculus with 4 samples.

Results

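The 38 interferon-induced genes described here are genes known to be switched on by interferon, selected by matching the gene name of each array probe to a fixed list. The list was chosen with earlier ratios of these same 4 arrays known, so that calls and ratios of its members are given as a description. Of 38 genes, all had a probe on the array and 37 were bright enough to be tested, out of 22455 genes tested in all, the exception being Mx1. The explants were ureters of wildtype NMRI mouse embryos at E12.5 (embryonic day), cultured for 18 h either with 10 µM IWP-2 or with its solvent DMSO at 2 parts per 1000 as the control. IWP-2 inhibits Porcupine, the enzyme that attaches the lipid with which WNT proteins are secreted. Both groups were wildtype tissue, the explants of each sample were pooled, and the labels do not say whether the pools came from separate litters, so that the errors below cover only the spread between these pools. Each of 4 arrays carried 1 treated and 1 control sample in opposite dyes, with the treated sample red on arrays 1 and 3 and green on arrays 2 and 4. Every array value is a log2 ratio of IWP-2 over DMSO unless a level is named, and a ratio of 1 is a 2-fold difference. The WNT target Axin2 was lower on every array, with a mean ratio of -1.56 (limma adjusted p = 1.2e-05).

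Interferons are secreted proteins that cells release when they sense foreign or misplaced nucleic acid. Type I interferons act through a receptor with the kinases JAK1 and TYK2, which activate STAT proteins that join IRF9 and bind a short response element in the promoters of their target genes. The targets include sensors of RNA and DNA, proteins that block viral replication or translation, the ubiquitin-like modifier ISG15, and the machinery that loads peptides on MHC class I molecules, and many of them are also expressed at a low level without infection.

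Of the 37 tested genes, 20 rose and 4 fell with IWP-2 (limma, Benjamini-Hochberg over all genes, threshold 0.05), and 13 did not pass. Among all genes, 18.1% rose and 15.0% fell. The median ratio of the interferon-induced genes was 0.24, against 0.001 over all genes. In 21 of the 37 genes the ratio lay above 0 on 4 of 4 arrays, a pattern found in 22.3% of all genes, and in 5 it lay below 0 on all of them, against 21.0% of all genes. The changes were small: only Mx2 and Oasl2 had a mean ratio past 2-fold, and the median size among called genes was 0.39. Array 4 stood apart. The median of the interferon-induced genes was 0.21 on array 1, 0.16 on array 2, 0.20 on array 3 and 0.36 on array 4. Without array 4, 17 genes rose and 4 fell, against 14.9% and 11.3% of all genes under the same fit. Array 2 is the only array of its dye orientation in that fit. Of the 20 risen genes, 15 were shared by both fits. The other genes in the count of 17 were Ifit1 and Ifi44. Both entered the tested genes only through their treated samples, so that their calls in that fit are no support for a rise.

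**Figure D1:**
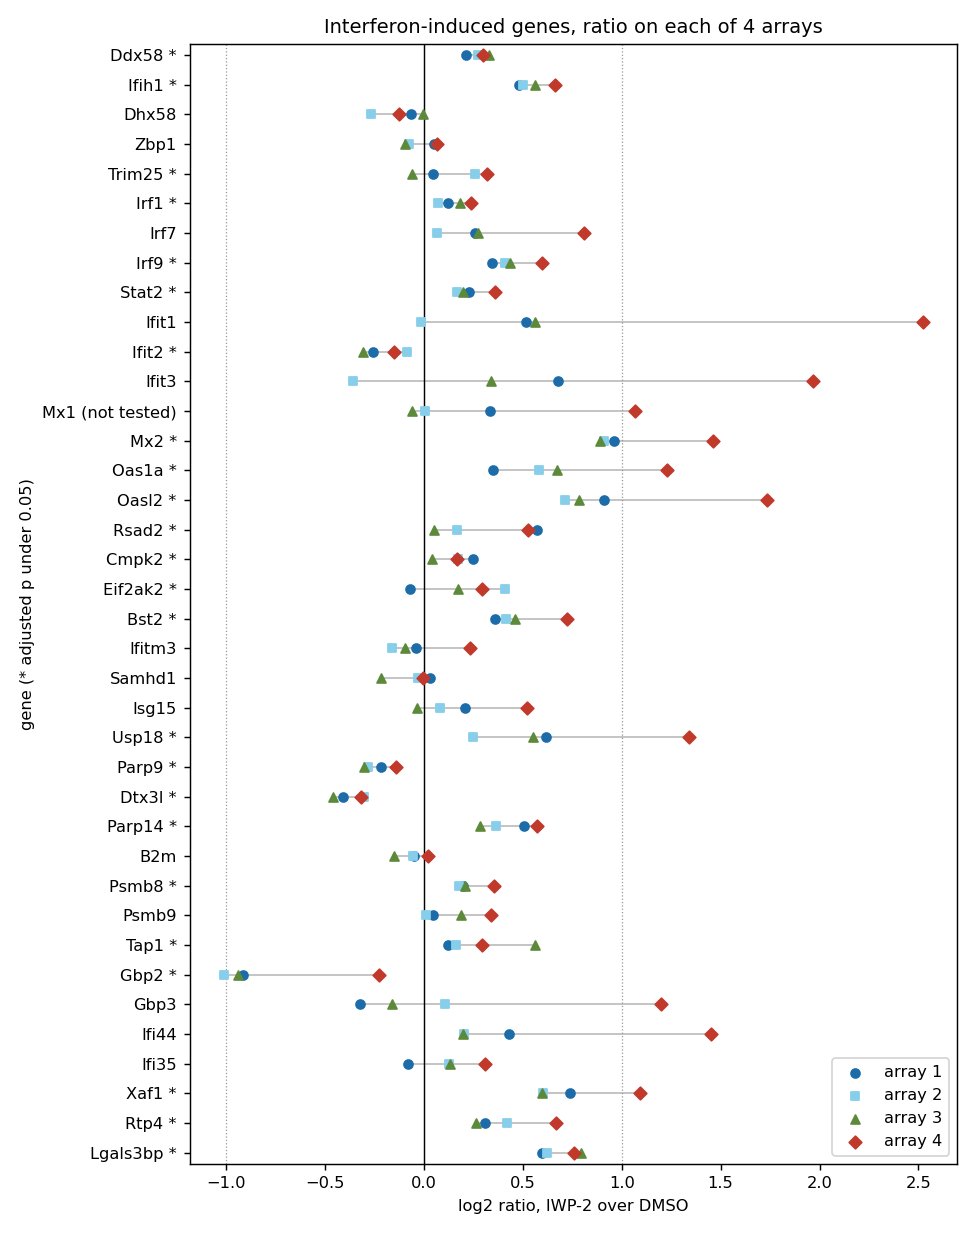
Log2 ratio of IWP-2 over DMSO for each of the 38 interferon-induced genes (rows, grouped by role) on each of 4 arrays (points), with a line from the lowest to the highest array; dotted lines mark 2-fold. For 27 of the 37 tested genes the rightmost point is array 4, most of all for Ifit1 at 2.52 and Ifit3 at 1.97, while Gbp2 sits left of 0 on every array.

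The promoters of 6 genes are shown because these genes carry the 2 patterns described below. Ifit1, Ifit3 and Gbp3 were high on array 4, Oas1a and Oasl2 were higher with IWP-2 on every array, and Gbp2 was lower on every array. Sequences are from RefSeq (GRCm38.p6) and run 5′ to 3′ on the gene's own strand, from 250 bases before the annotated start to 50 bases after it. Capitals mark the letters GAAANNGAAA or, for the opposite strand, TTTCNNTTTC, which are the core of the interferon-stimulated response element. Where matches overlap, the capitals run together.
Ifit1, chr19:34640639-34640938, plus strand: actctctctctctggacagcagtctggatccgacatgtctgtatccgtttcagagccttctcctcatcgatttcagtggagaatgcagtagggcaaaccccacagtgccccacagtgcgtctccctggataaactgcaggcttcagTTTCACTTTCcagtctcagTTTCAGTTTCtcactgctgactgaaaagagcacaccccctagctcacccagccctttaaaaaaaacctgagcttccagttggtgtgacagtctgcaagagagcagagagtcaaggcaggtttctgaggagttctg
Ifit3, chr19:34583279-34583578, plus strand: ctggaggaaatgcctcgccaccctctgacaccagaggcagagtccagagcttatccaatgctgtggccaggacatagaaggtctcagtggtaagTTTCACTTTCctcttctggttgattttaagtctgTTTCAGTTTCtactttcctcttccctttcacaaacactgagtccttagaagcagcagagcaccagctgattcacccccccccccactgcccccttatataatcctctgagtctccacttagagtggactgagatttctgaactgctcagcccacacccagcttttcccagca
Gbp3, chr3:142559794-142560093, plus strand: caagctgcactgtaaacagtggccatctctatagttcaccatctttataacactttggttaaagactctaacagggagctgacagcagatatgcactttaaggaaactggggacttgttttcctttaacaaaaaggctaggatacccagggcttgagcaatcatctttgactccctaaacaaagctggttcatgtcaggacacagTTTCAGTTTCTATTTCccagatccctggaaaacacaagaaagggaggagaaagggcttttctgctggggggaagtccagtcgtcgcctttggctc
Oas1a, chr5:120907476-120907775, minus strand: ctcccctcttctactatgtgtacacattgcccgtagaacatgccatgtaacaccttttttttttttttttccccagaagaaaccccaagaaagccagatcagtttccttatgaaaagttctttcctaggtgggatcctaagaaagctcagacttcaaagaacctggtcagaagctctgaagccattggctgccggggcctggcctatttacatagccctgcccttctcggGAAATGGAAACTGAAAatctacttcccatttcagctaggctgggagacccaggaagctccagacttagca
Gbp2, chr3:142620413-142620712, plus strand: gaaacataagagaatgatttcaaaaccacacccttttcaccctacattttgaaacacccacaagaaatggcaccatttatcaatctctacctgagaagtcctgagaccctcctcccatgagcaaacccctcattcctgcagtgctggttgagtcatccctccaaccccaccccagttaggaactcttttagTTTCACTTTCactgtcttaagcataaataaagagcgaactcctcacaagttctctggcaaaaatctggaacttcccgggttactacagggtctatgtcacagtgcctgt
Oasl2, chr5:114896684-114896983, plus strand: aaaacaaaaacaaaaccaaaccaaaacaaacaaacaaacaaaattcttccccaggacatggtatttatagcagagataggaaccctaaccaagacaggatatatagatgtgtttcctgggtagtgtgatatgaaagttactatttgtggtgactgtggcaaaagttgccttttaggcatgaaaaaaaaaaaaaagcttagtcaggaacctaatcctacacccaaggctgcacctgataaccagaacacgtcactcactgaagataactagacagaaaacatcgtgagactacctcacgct

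The matches of Ifit1 began 104 and 85 bases before the start, and those of Ifit3 began 156 and 122 bases before it. Gbp3 had 2 overlapping matches at 45 and 39 bases, in 1 of its 2 annotated promoters. The pair in Oas1a also overlapped and lay at 20 and 14 bases. A single match 59 bases before the start was found in Gbp2, the gene that fell most, and none in Oasl2, one of those that rose most. Of the 30 interferon-induced genes with a promoter in the table, 14 held these letters on either strand, with overlapping matches counted separately. That was 46.7%, against 3.99% of all 27025 gene symbols and 3.44% of all 32851 promoter windows of the same length. Mx1, Mx2, Rtp4, Usp18, Zbp1, Parp14, Dhx58 and Parp9 had no entry. The median ratio was 0.26 in the 14 genes with a match and 0.19 in the 16 without, and both groups held rising and falling genes, with ranges of -0.77 to 0.89 and -0.37 to 1.03. A match describes the letters in this window and no binding was measured.

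**Figure D2:**
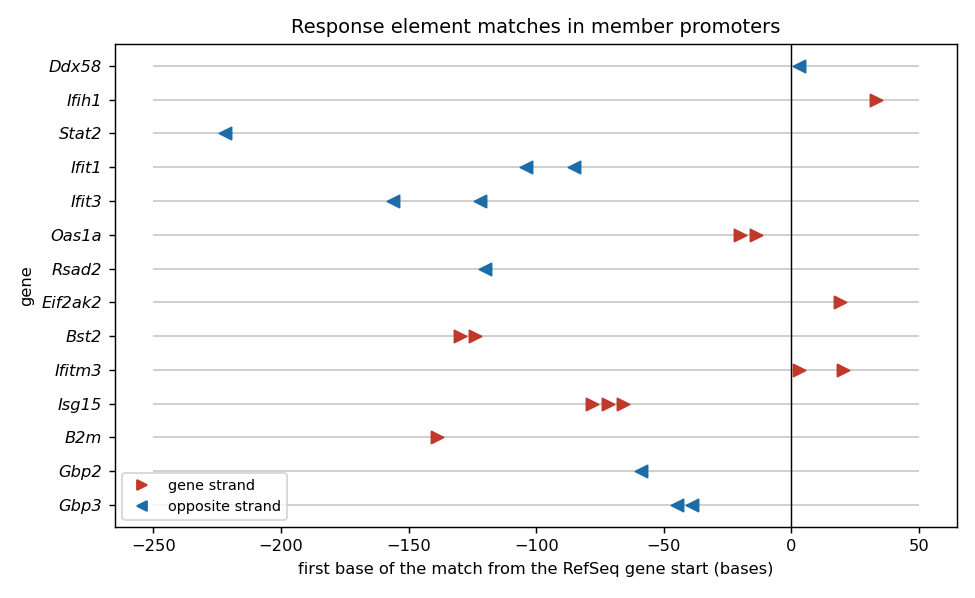
Position of each response element match (arrowheads, pointing right on the gene's strand and left on the opposite strand) in the 14 interferon-induced genes that hold one, in bases from the RefSeq gene start at 0; grey lines are the searched window from 250 before to 50 after the start. Isg15 has 3 matches and most genes have 1 or 2.

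Among the sensors of foreign nucleic acid, 3 of 5 genes rose. Ifih1, which encodes the sensor of long double-stranded RNA MDA5, had ratios of 0.48, 0.50, 0.56 and 0.66 on arrays 1 to 4. The 4 treated levels lay above the 4 control levels, and the mean was 0.55 (SD 0.08, n = 4, limma adjusted p = 0.000474). Its probe matches chr2:62435507-62435566 of mm9, the build of the array files. Ddx58, which encodes the RNA sensor RIG-I, had ratios of 0.21, 0.28, 0.33 and 0.30 and a mean of 0.28 (SD 0.05). A second probe of Ddx58 was less even, with ratios from 0.122 to 0.525 and a mean of 0.342. Trim25, a ubiquitin ligase that acts on RIG-I, had ratios of 0.05, 0.26, -0.06 and 0.32, with the higher values on the 2 arrays in which the treated sample was green. Its second probe gave 0.53, 0.41, 0.53 and 0.42, so that the mean was 0.14 on one probe and 0.47 on the other. With any 1 of the 4 arrays left out the fitted ratio of the first probe lay between 0.11 and 0.17 and was not called. Dhx58, which encodes the RIG-I relative LGP2, had ratios from -0.27 to -0.004, and Zbp1, a sensor of Z-form nucleic acid, had ratios from -0.10 to 0.07. Neither passed the test, and both were dim, with control levels from 6.92 to 7.38.

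Of the 4 transcription factors, 3 rose. Irf9, the DNA-binding partner of the STAT proteins downstream of type I interferon, had ratios of 0.34, 0.41, 0.44 and 0.60, with a mean of 0.45 (SD 0.11, limma adjusted p = 0.0012). Stat2, which joins IRF9 in the same complex, had ratios of 0.23, 0.17, 0.20 and 0.36 and a mean of 0.24 (SD 0.09). Treated and control levels did not overlap for either gene. Irf1, a factor that also responds to interferon gamma, had ratios of 0.12, 0.07, 0.18 and 0.24, with a mean of 0.15. It was not called without array 1, 3 or 4, at fitted ratios of 0.17, 0.14 and 0.11. Irf7, which drives further interferon transcription, had ratios of 0.26, 0.07, 0.27 and 0.81. The array 4 value was the highest of the 4, and the mean of 0.35 did not pass (SD 0.32, limma adjusted p = 0.0518). Without array 4 the fitted ratio was 0.17. Without array 2, where array 4 was the only array of its dye orientation, it was 0.54.

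The antiviral effectors held the largest values, with 7 of 12 tested genes higher and 1 lower. Mx2, a dynamin-like GTPase, had ratios of 0.96, 0.91, 0.89 and 1.46. All arrays were high and the treated and control levels did not overlap, with control levels from 8.22 to 8.45 and treated levels from 9.19 to 9.68. The mean was 1.06, or 2.08-fold (SD 0.27, limma adjusted p = 0.000459), but a dimmer second probe of Mx2 gave only 0.06, 0.22, 0.06 and 0.45. Oasl2, which encodes a relative of the oligoadenylate synthetases that bind double-stranded RNA, had ratios of 0.91, 0.71, 0.78 and 1.73. Its mean was 1.03, or 2.05-fold (SD 0.47, limma adjusted p = 0.00352), and the mean of arrays 1 to 3 was 0.80. Oas1a, which encodes an oligoadenylate synthetase that activates RNase L, had ratios of 0.35, 0.58, 0.67 and 1.23 and a mean of 0.71 (SD 0.37). Its second probe gave 0.33, and near-identical copies such as Oas1g may share signal with it. Bst2, which encodes tetherin, a membrane protein that holds back budding virus, had ratios of 0.36, 0.41, 0.46 and 0.72 with a mean of 0.49 (SD 0.16).

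Rsad2 and Cmpk2, neighbours on chromosome 12, and the kinase gene Eif2ak2 rose by less. Rsad2, which encodes viperin, had ratios of 0.57, 0.17, 0.05 and 0.53, and Cmpk2, a mitochondrial nucleotide kinase, had ratios of 0.25, 0.17, 0.04 and 0.16. Eif2ak2, which encodes PKR, a kinase that halts translation, had ratios of -0.07, 0.41, 0.17 and 0.29. The fitted ratio of Rsad2 went from 0.33 to 0.20 without array 1 and to 0.24 without array 4, and its call was lost in both fits. That of Cmpk2 went from 0.16 to 0.10 without array 1 and stayed at 0.15 and 0.16 without array 2 or 4, with the call lost in all 3 fits. Eif2ak2, at 0.20, was at 0.17 and 0.14 without array 2 or 3, which ended its call. Ifit2, a translation inhibitor, fell by 0.20 on the log2 scale (SD 0.10, limma adjusted p = 0.0108), with ratios of -0.26, -0.09, -0.31 and -0.15. It lies next to Ifit3 and Ifit1 on chromosome 19, with its probe at chr19:34650244-34650303 (mm9), and was the only 1 of the 3 without a match to the response element. Without array 3 the fitted ratio was -0.19 and just missed the threshold (limma adjusted p = 0.0506). Ifitm3, which blocks viral entry, ranged from -0.16 to 0.23, and Samhd1, which depletes nucleotides, ranged from -0.22 to 0.03. Neither passed the test.

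In the ISG15 system, Usp18, the protease that removes ISG15 and dampens the interferon receptor, had ratios of 0.62, 0.25, 0.55 and 1.34. The treated levels lay above the control levels, and the mean was 0.69 (SD 0.46, limma adjusted p = 0.0183). Without array 1 the fitted ratio stayed at 0.67 but the call was lost, and without array 4 it was 0.42. Isg15 itself had ratios of 0.21, 0.08, -0.04 and 0.52 and did not pass (limma adjusted p = 0.112). Its fitted ratio was 0.30 without array 2, where array 4 was the only array of its dye orientation. The neighbouring genes Parp9, Dtx3l and Parp14 on chromosome 16 did not move together. Parp14, an ADP-ribosyltransferase, had ratios of 0.51, 0.36, 0.28 and 0.57 and a mean of 0.43 (SD 0.13, limma adjusted p = 0.00256). Dtx3l, a ubiquitin ligase, had ratios of -0.41, -0.30, -0.46 and -0.32 and fell by 0.37 on the log2 scale (SD 0.08, limma adjusted p = 0.00106). Its partner Parp9 had ratios of -0.22, -0.28, -0.30 and -0.14 and fell by 0.24. Dtx3l was the 1 interferon-induced gene whose 4 treated levels all lay below its 4 control levels, which was so for 11.5% of all genes. The 2 further probes of Dtx3l had means of -0.24 and -0.16 but were above 0 on array 3.

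Of the antigen presentation genes, 2 of 4 rose. Psmb8, an immunoproteasome subunit, had ratios of 0.20, 0.18, 0.20 and 0.36, and Tap1, part of the peptide transporter, had ratios of 0.12, 0.16, 0.56 and 0.29. Their means were 0.23 (SD 0.08) and 0.28 (SD 0.20). The fitted ratio of Tap1 was 0.17 without array 3 and 0.25 without array 4, and neither passed (limma adjusted p = 0.0755 and 0.0678). Psmb9, another immunoproteasome subunit, ranged from 0.01 to 0.34, and B2m, the light chain of MHC class I, from -0.15 to 0.02, and neither passed.

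The guanylate-binding proteins are GTPases that attack vacuoles of intracellular microbes. Gbp2 had ratios of -0.92, -1.01, -0.94 and -0.23. Arrays 1 to 3 lay close together, and array 4 was nearer to 0, although the mean was lower with IWP-2 by 1.71-fold (log2 ratio -0.77, SD 0.37, limma adjusted p = 0.00402). Without array 4 the fitted ratio was -0.97. Gbp3, in the same cluster on chromosome 3, had ratios of -0.32, 0.10, -0.16 and 1.20 and did not pass (limma adjusted p = 0.37). Its fitted ratio was -0.07 without array 4. Without array 2, where array 4 was the only array of its dye orientation, it was 0.48. Both genes were thus higher on array 4 than on any other array. Genes of this family are similar in sequence, and how far their probes share signal is not known here.

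Of the remaining 5 genes, 3 rose. Lgals3bp, a secreted glycoprotein, had ratios of 0.60, 0.62, 0.79 and 0.76. Its mean was 0.69, or 1.62-fold (SD 0.10, limma adjusted p = 0.000304), with control levels from 9.57 to 9.80 and treated levels from 10.19 to 10.56. A second probe of Lgals3bp gave 0.54, 0.26, 0.61 and 0.47. Xaf1, a partner of the apoptosis inhibitor XIAP, had ratios of 0.74, 0.60, 0.60 and 1.09 and a mean of 0.76 (SD 0.23, limma adjusted p = 0.00121). Rtp4, a chaperone of membrane receptors that also restrains viral replication, had ratios of 0.31, 0.42, 0.26 and 0.67 with a mean of 0.41 (SD 0.18). Ifi35 ranged from -0.08 to 0.31 and did not pass.

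Treated and control levels did not overlap, with all 4 treated levels higher, in 14 of the 37 genes, against 11.0% of all genes. These were Ddx58, Ifi44, Ifih1, Irf7, Irf9, Lgals3bp, Mx2, Oas1a, Oasl2, Parp14, Rtp4, Stat2, Usp18 and Xaf1. Among the 35 genes above background in all 8 channels there were 13, since Ifi44 was not above background in any control sample. With array 4 set aside, Mx2, Oasl2, Xaf1, Lgals3bp, Ifih1, Oas1a, Bst2 and Irf9 had ratios of at least 0.34 on each of arrays 1 to 3. The value of 0.34 was set after the ratios were seen. The share of all genes that meet it was not counted, so that the names are only a description.

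The second pattern was found on array 4 alone and is seen in the levels of its treated channel. Ifit1, which encodes a protein that binds viral RNA caps, had treated levels of 7.48, 6.93, 7.11 and 9.15 and control levels of 6.97, 6.94, 6.55 and 6.63 on arrays 1 to 4. Only the treated sample of array 4 was high, and the control sample of array 4 was among the lower ones. Control signal was above background on 3 of 4 arrays and treated signal on all. The ratios were 0.51, -0.02, 0.56 and 2.52, with a mean of 0.89 that did not pass (SD 1.12, limma adjusted p = 0.102). Without array 4 the fitted ratio was 0.26, and without array 2 it was 1.53, array 4 then being the only array of its dye orientation. The probe matches chr19:34723796-34723855 (mm9).

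Ifit3, which encodes a partner of IFIT1, had treated levels of 7.99, 7.26, 7.34 and 9.98 and control levels of 7.32, 7.62, 7.00 and 8.01. Both channels of array 4 were the highest of their group, the treated one by more. The ratios were 0.68, -0.36, 0.34 and 1.97 (mean 0.66, SD 0.98, limma adjusted p = 0.178). The fitted ratio was 0.07 without array 4 and 1.24 without array 2, where array 4 again stood alone in its dye orientation. The near-identical copy Ifit3b may share its probe, at chr19:34663105-34663164 (mm9). Ifi44, a classical gene of the interferon response, was well above background in all 4 treated samples and in none of the control samples. Its ratios were 0.43, 0.20, 0.20 and 1.45, with a mean of 0.57, most of it from array 4, that did not pass (SD 0.60, limma adjusted p = 0.0534). Against the background of the control channels the mean treated level of the 4 arrays was at least 1.46-fold higher, a bound that was not tested. Without array 4 the fitted ratio was 0.26, and without array 2, with array 4 alone in its dye orientation, it was 0.88. Ifi44 and Ifit1 entered the tested genes only through their treated samples, so that the p-values given for them are no support for a rise. Mx1, a GTPase related to Mx2, was not tested because 3 treated and 2 control samples were above background, and its ratios were 0.33, 0.01, -0.06 and 1.07.

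**Figure D3:**
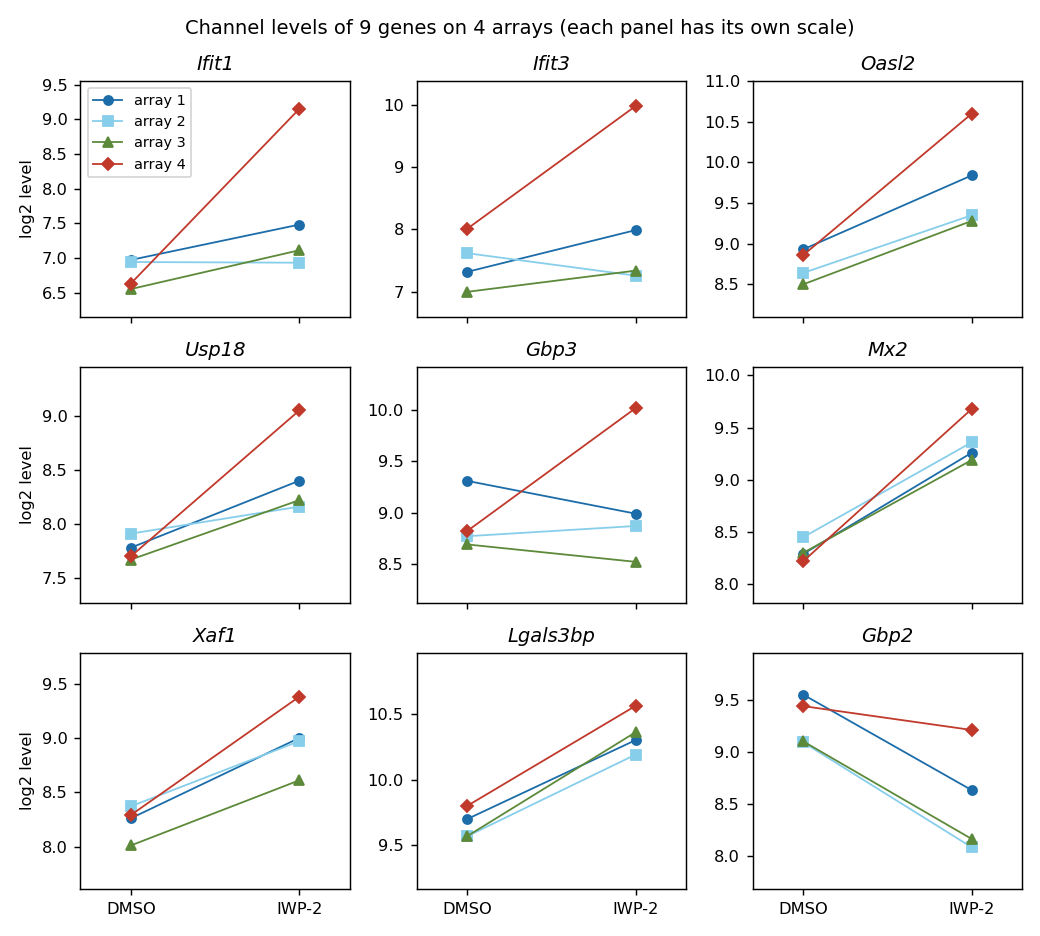
Log2 channel level of 9 interferon-induced genes in the DMSO and the IWP-2 sample of each array, joined by a line per array; each panel has its own vertical scale and levels cannot be compared between genes. The treated sample of array 4 is the highest point for Ifit1, Ifit3, Oasl2, Usp18, Gbp3, Mx2, Xaf1 and Lgals3bp, while its control sample lies within or near the other controls except for Ifit3.

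Arrays 2 and 4 had the same dye orientation, so that the dye effect cancels in the difference of their ratios. In 6 of 37 genes the ratio of array 4 was at least 2-fold that of array 2, namely Ifit1 (2.54 on the log2 scale), Ifit3 (2.33), Ifi44 (1.25), Usp18 (1.09), Gbp3 (1.09) and Oasl2 (1.02). Over all genes this was so for 11, or 0.0490%. Of the 35 genes above background in all 8 channels, 4 were among the 6. No interferon-induced gene was past 2-fold in the opposite direction, against 0.0134% of all genes. Between arrays 1 and 3, which share the other orientation, no interferon-induced gene was past 2-fold in either direction, against 0.0713% and 0.0534% of all genes, and the largest difference was 0.52, for Rsad2. A higher ratio on array 4 than on array 2 was found in 33 of 37 genes (89.2%), against 47.4% of all genes, and the median difference was 0.19, against -0.01 over all genes. For arrays 1 and 3 the median difference was 0.05 against 0.01. There was 1 array on each side of these differences, so that no test was made.

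**Figure D4:**
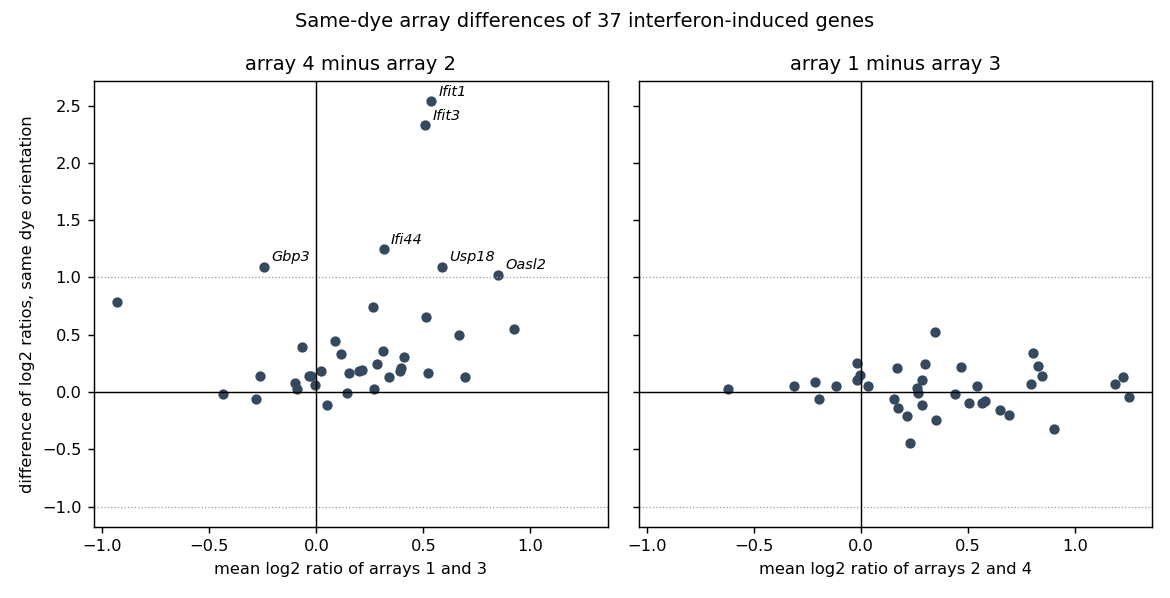
Difference between the log2 ratios of 2 arrays with the same dye orientation (vertical, array 4 minus 2 on the left and array 1 minus 3 on the right) against the mean log2 ratio of the other 2 arrays (horizontal), 1 point per tested interferon-induced gene; dotted lines mark 2-fold. On the left 6 named genes lie above the line and 33 of 37 above 0, and on the right none passes 2-fold.

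The channel levels gave the same split. The median over the interferon-induced genes of the treated level of array 4 minus the mean of arrays 1 to 3 was 0.28, and the same median for the control levels was 0.02. The treated sample of array 4 had the highest of all 8 levels in 25 of 37 genes, against 10.4% of all genes. Among the 35 genes above background in all 8 channels there were 23. Of the 37 ratios, 27 were highest on array 4, 3 on array 1, 3 on array 2 and 4 on array 3, and over all genes 22.4% were highest on array 4. The excess of array 4 over the highest other array passed 2-fold in 4 genes of all, which were Ifit1, Ifit3, Gbp3 and Ifi44, and 2 of them, Ifit3 and Gbp3, were above background in all 8 channels. Across the 37 genes the difference between arrays 4 and 2 had a Spearman correlation of 0.45 and a Pearson correlation of 0.30 with the mean ratio of arrays 1 and 3, which share no sample with it but share the slide and the probes. Without Ifit1 and Ifit3 these were 0.39 and 0.22 (35 genes), and over all genes 0.01 and -0.02. These 35 genes still hold Ifi44, which was above background in treated samples only. The genes were chosen with these ratios known and are not replicates, so that the correlation is only a description.

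Genes outside the 38 were taken from lists of the same pathway. Of 14 interferon ligand genes on the array, 9 were tested and 0 were called (limma; lowest adjusted p = 0.137; 0 at an unadjusted p under 0.05), with mean ratios from -0.08 to 0.01. Ifnb1, Ifng, Ifne and Ifna4 were not well above background in any sample, treated sample of array 4 included. Of the 9 receptor and kinase genes, 5 rose, by 0.14 for Ifnar1, 0.20 for Ifngr1, 0.22 for Il10rb, 0.24 for Jak1 and 0.29 for Jak2. Their median was 0.06 on array 4, the lowest of the arrays. Of 10 further factors and feedback genes 4 rose and 2 fell. Those that rose included the inhibitors Socs1 (0.19) and Socs3 (0.25), and those that fell were Irf5 (-0.35) and Pias1 (-0.23). Of 12 sensing adaptor genes 5 rose, among them the kinase gene Ikbke (0.32), and the DNA sensor gene Mb21d1 fell by 0.45 on the log2 scale.

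A list of 68 further interferon-induced genes was counted in the same way. Of the 60 tested, 32 rose and 6 fell, the median ratio was 0.22, and its array medians were 0.18, 0.17, 0.17 and 0.32. Rnf213, a large ubiquitin ligase, had ratios of 0.57, 0.71, 0.61 and 0.76 (mean 0.66, limma adjusted p = 0.000129). The largest fall was that of Iigp1, an immunity-related GTPase, with ratios of -1.43, -0.84, -1.29 and -1.08 (mean -1.16, limma adjusted p = 5.3e-05). In the difference of arrays 4 and 2, the chemokine gene Cxcl10 was past 2-fold with ratios of 0.60, -0.85, 1.23 and 1.46, as was Nlrc5, a regulator of MHC class I genes, with ratios of 0.09, -0.06, 0.14 and 0.98. Cxcl10 was also high on arrays 1 and 3, so that array 2 rather than array 4 stood apart for it. Among genes in no list the largest differences between arrays 4 and 2 were those of Ddx6 (1.91), Upk2 (-1.27), CB248850 (-1.11), Fgf22 (1.05) and Cyp39a1 (-1.01). The remaining gene past 2-fold, Tgtp2 (1.01), an interferon-inducible GTPase, was named after its values were seen.

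**Figure D5:**
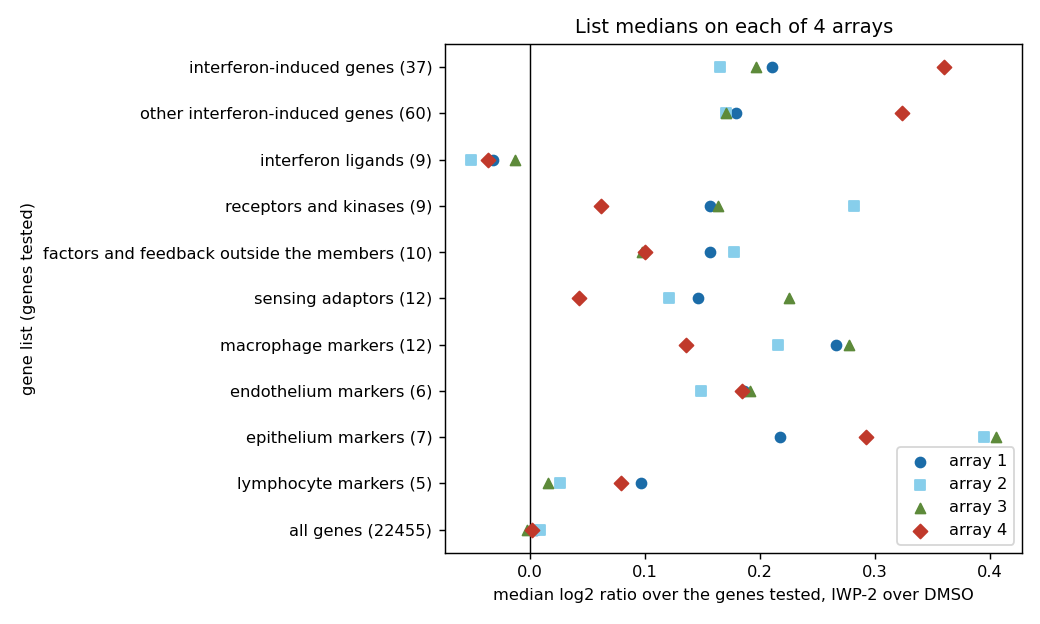
Median log2 ratio over the tested genes of each list (rows, number tested in parentheses) on each of 4 arrays (points). Array 4 is the highest for the interferon-induced genes at 0.36 and for the further interferon-induced genes at 0.32, is the lowest for macrophage markers at 0.14, and lies near 0 for all genes.

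Markers of other cell types were counted beside these lists, and in pooled tissue fewer cells of a type and less RNA per cell cannot be told apart. Of 12 macrophage markers all were tested and 9 rose, among them Adgre1 by 0.49, Lyz2 by 0.43 and Ptprc by 0.36. The mean ratios of the 12 markers ranged from -0.055 to 0.494. Their summed processed signal ranged from 4472 to 6904 in the control and from 5283 to 7852 in the treated samples. The median ratio of the list was 0.27, 0.22, 0.28 and 0.14 on arrays 1 to 4. Of 8 lymphocyte markers 5 were tested and 0 were called (limma; lowest adjusted p = 0.274; 0 at an unadjusted p under 0.05), and Cd3g and Ncr1 were not well above background in any sample. Their summed signal was 653.8 to 869.1 in the control and 697.8 to 880.9 in the treated samples. Of 6 endothelium markers 4 rose, of 6 blood markers 4, and of 7 epithelium markers 7, with list medians of 0.19, 0.27 and 0.30. The tissue markers of the ureteric mesenchyme were well above background for 6 of 6 genes, of which Tbx18 and Foxf1 fell and Aldh1a2 and Pdgfrb rose. The part of these cell types in the shared rise of interferon-induced genes, or in their higher ratios on array 4, was not tested.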

How the data were processed

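RNA of IWP-2 and DMSO treated ureter explants was hybridised by the authors in pairs to 4 Agilent two-colour arrays with alternating dyes, all on 1 slide and in 1 scan. The deposited intensity columns (mean, background and processed signals per spot, Agilent Feature Extraction 10.7.3.1 per the submitters' processing notes) and the deposited log10 ratio per spot were made by the authors with that software. The deposited series table, read as a score, holds signed fold changes made by the authors. The log10 ratio was read only to check the signals. No column of per-sample values was left without a sample.

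From the mean and background signals, the background was corrected with normexp (offset 50), ratios were normalised by loess within arrays (span 0.3), outlier spots were dropped and the spots of a probe averaged. Testing was limited to genes with a probe flagged above background (a share of its spots above 0.5) in every control or every treated sample, and the brightest such probe stood for the gene. limma 3.58.1 (lmFit and eBayes, R 4.3.3) with a treatment and a dye term was run over all genes with Benjamini-Hochberg adjustment. Levels were additionally scaled between arrays (Aquantile) and are not comparable between probes. The number of arrays limits the precision. The authors filtered on intensity and fold change and named no test.

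Members, lists and the rule for naming genes (called, past 2-fold, or a factor or sensor) were chosen with earlier results of these data known. Processing alternatives comprised background offset, normalisation, probes, filters, the dye term and leaving out each array.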

Additional observations from a re-analysis of the deposited data

Results flagged for a closer look

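Among 38 genes and 13 list medians, each with 4 array values, 3 genes and 2 lists had 1 array far from the other 3 (Dixon's test at its 95% critical value). For unselected and unrelated values chance alone gives about 1 in 20. The 38 genes were chosen with these ratios known, so that the flags are only a description. Mx2 was at 1.46 on array 4, against 0.89 to 0.96 on the others. Psmb8 was at 0.36 on array 4, against 0.18 to 0.20. Gbp2 was at -0.23 on array 4, against -1.01 to -0.92. The median of the further interferon-induced genes was 0.32 on array 4, against 0.17 to 0.18. The median of the endothelium markers was 0.15 on array 2, against 0.18 to 0.19.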

How the results depend on the processing

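The median over the interferon-induced genes stayed above 0 under every alternative run, from 0.20 to 0.29, and the control and treated channel levels of array 4 kept their split with processed signals scaled to the 75th percentile. No member changed sign among called values. Leaving out 1 array at a time, the median ratio lay from 0.20 to 0.29 over the members. Over the further interferon-induced genes it lay from 0.19 to 0.26, and over all genes from 0.0001 to 0.003. Counts of calls in these fits are not given as a range. Each of these fits has 1 dye orientation with a single array, which adds nothing to the error. The count that fell among the further genes was 6 in the fit reported and 3 with a normexp offset of 0, with the processed signals and without the dye term. From the series table, whose fold changes are rounded, 6 members rose and 2 fell (against 8.16% and 9.13% of all genes), and 18 further genes rose and 2 fell; the cause was not tested. With a mean processed signal over 100 required, fewer members were tested and 2 rather than 6 were past 2-fold in array 4 over 2. Ratios of dim members depended on the background step: Ifi44 was at 0.57 with an offset of 50, 1.00 with an offset of 0 and 1.80 with the processed signals, and Ifit1 at 0.89, 1.28 and 1.67. Scaling between arrays leaves the ratios as they are by construction, so that it is no check of them. A slide block could not be fitted because all arrays lie on 1 slide. Every fit was paired, since each array gives 1 ratio of its treated over its control sample.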

Other observations

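The MHC class I genes among the further interferon-induced genes rose. H2-K1 had ratios of 0.32, 0.32, 0.41 and 0.45, H2-D1 of 0.30, 0.24, 0.34 and 0.34, H2-T23 of 0.36, 0.17, 0.40 and 0.34, and Tapbp, which helps to load peptides, of 0.27, 0.29, 0.31 and 0.40. All 4 were called (limma adjusted p = 0.00166, 0.00267, 0.00341 and 0.00248), whereas B2m, the light chain of class I, had a mean of -0.06. Of the 6 immunity-related GTPases on the list, Irgm2 (0.48), Igtp (0.30) and Irgm1 (0.27) rose, Iigp1 fell by 1.16 on the log2 scale, and Ifi47 (0.14, highest on array 4 at 0.81) and Tgtp1 (0.07) did not pass. Ifitm1, on chromosome 7 with Ifitm3, fell by 0.47 with ratios of -0.42, -0.87, -0.09 and -0.51.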
